A study of Homo sapiens with 14 samples.

Results

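The 8 members of the suppressor of cytokine signalling family (CISH and SOCS1 to SOCS7) and the kinase gene PIM1 were chosen by symbol as cytokine feedback and STAT5 target genes, and all 9 were found among 24199 features of the DU145 table and among 44591 genes of the LNCaP table. DU145 and LNCaP are human prostate cancer cell lines. In DU145, 3 libraries of cells with a non-target control hairpin (shCON) were compared with 3 libraries of cells with a lentiviral hairpin against PAX6 (shPAX6), a paired box transcription factor. In LNCaP, 1 library of untreated wild type cells (parental) was set beside 1 library of LNCaP-ENZ cells, made by 30 days of enzalutamide and kept in 20 µM of this antiandrogen. The knockdown lines were stable subclone lines, and the sources used here do not say which PAX6 hairpin the libraries carried or whether libraries of a group came from separate cultures, so the p-values measure only the spread between these libraries, which may be technical.

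Cytokines such as growth hormone, prolactin, erythropoietin and interleukins bind receptors that carry JAK kinases, and the kinases phosphorylate STAT transcription factors, which move to the nucleus. STAT5 and STAT3 then switch on genes that end the signal. CISH and SOCS1 to SOCS7 each hold an SH2 domain that docks on phosphotyrosine and a SOCS box that recruits an elongin and cullin ubiquitin ligase, so that receptors and kinases are blocked or degraded. PIM1 is a serine/threonine kinase without either domain that is induced by the same STATs and favours survival. In prostate epithelium, prolactin and growth hormone signal through STAT5 and interleukin 6 signals through STAT3.

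STAT dimers bind a palindrome, TTCNNNGAA, and this motif was searched in the 250 bases upstream of the start of 8 of the 9 genes, SOCS3 left out, as the LNCaP table gives it (GRCh37). The window of CISH is shown because it was the 1 of the 8 with a match, and the matches are in capitals. It lies at chr3:50649263-50649512 on the minus strand and is written 5′ to 3′ toward the gene.
CISH: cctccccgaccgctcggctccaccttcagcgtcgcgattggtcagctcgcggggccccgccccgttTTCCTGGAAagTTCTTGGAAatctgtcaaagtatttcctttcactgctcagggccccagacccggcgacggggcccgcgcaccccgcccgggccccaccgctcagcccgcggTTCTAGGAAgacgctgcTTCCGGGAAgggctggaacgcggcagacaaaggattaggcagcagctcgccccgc
The CISH window held 4 matches, in 2 close pairs, and none overlapped another. The outer pair ran from 184 to 176 and from 173 to 165 bases before the start, and the inner pair from 72 to 64 and from 55 to 47 bases before it. The motif reads the same on both strands, so each match counts for both. Of 19220 protein-coding windows of this length, 6.19% held at least 1 match, 0.302% at least 2, and 2 windows, CISH included, at least 4. The windows of SOCS1, SOCS2, SOCS4 to SOCS7 and PIM1 did not hold these letters. A match is a run of letters and was not tested for binding.

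**Figure D1:**
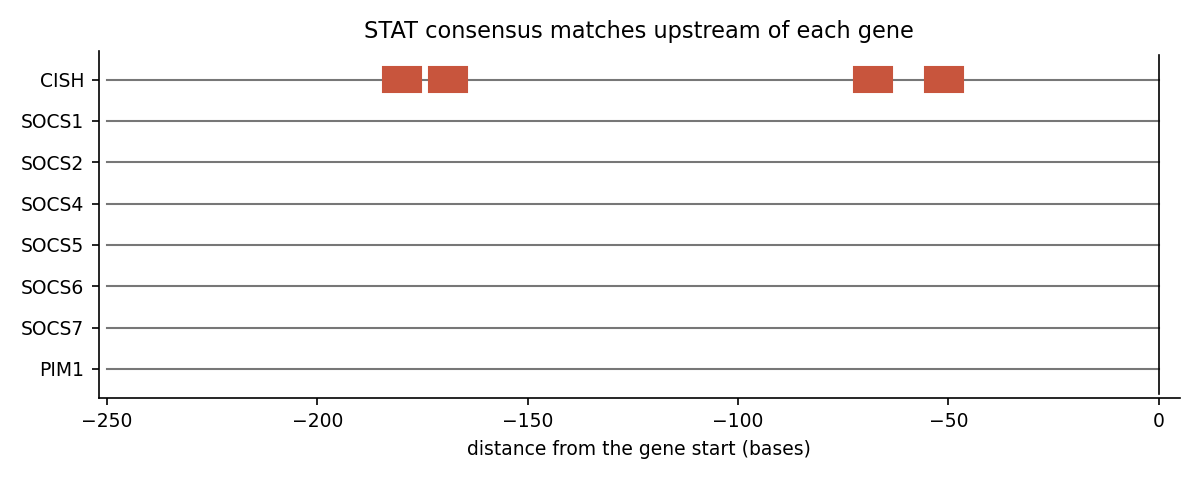
Matches of TTCNNNGAA (red boxes) in the 250 bases upstream of the start of 8 of the genes; the x axis is the distance from the gene start in bases and each grey line is 1 gene's window. CISH holds 4 boxes in 2 pairs, and the other 7 windows are empty.

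In DU145 the library values are FPKM, fragments scaled by transcript length and library size, with the number of reads unknown. Of 4 epithelial markers, KRT8 and KRT18 were above 400 FPKM in all 6 libraries. EPCAM and CDH1 were lower in every shPAX6 library than in every shCON library, which was so for 20.0% of all tested features. CDH1 fell 4.87-fold (limma adjusted p = 0.0334). The summed level of the 4 was 1525 to 1654 FPKM in shCON and 1135 to 1816 FPKM in shPAX6. Of 4 basal-like markers, 2 were at 0 in all 6 libraries and none had a limma adjusted p under 0.05. VIM, a mesenchymal filament gene, was the 1 of the 4 that was higher in every shPAX6 library (log2 change 0.56, limma adjusted p = 0.143). That was so for 6.70% of all tested features. Summed over each list, 5 leukocyte, 5 fibroblast and 4 endothelial markers reached at most 0.922, 0.773 and 0.127 FPKM in any library, and the leukocyte genes PTPRC and CD3E were at 0. The part of these marker differences in the values below was not tested. PAX6 was 0.839, 1.23 and 1.57 FPKM in shCON and 0.0153, 0.274 and 0.0778 FPKM in shPAX6, and each shPAX6 library lay below each shCON library. Its log2 fold change was -2.69 (SE 0.49, n = 3 each), with a limma adjusted p of 0.0539. The mean of PAX6 over the 6 libraries, 0.667 FPKM, passed the filter given next only through the shCON libraries. PAX6 was absent from the fit of features averaging 1 FPKM or more and from the fit without shCON library 3. In the other 15 alternative fits its change ran from -3.79, with a pseudocount of 0.01, to -0.97, with a pseudocount of 1. The limma adjusted p ran from 0.000112 to 0.288. Of the 13574 features that averaged 0.5 FPKM or more over the 6 libraries, 163 (1.20%) passed limma's moderated test at an adjusted p under 0.05 (Benjamini-Hochberg over all tested features), 24 of them higher and 139 (1.02%) lower in shPAX6. The split was 74 higher and 162 lower after quantile normalization, 28 and 72 after centring each library on its median, and 100 and 122 after a correction for GC content. The shPAX6 libraries 1 and 2 stood apart from each other, with a Pearson r across features of 0.930 against 0.986 to 0.987 among shCON libraries. This was below every r between a shCON and a shPAX6 library, which ran from 0.947 to 0.976. With shPAX6 library 3, libraries 1 and 2 had an r of 0.970 and 0.974.

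Across the shCON libraries, the levels of the 9 genes spanned from 0.103 FPKM for SOCS1 to 30.8 FPKM for SOCS2. SOCS2 was highest in each shCON library, at 28.2 FPKM or more. PIM1 (mean 10.2 FPKM) and SOCS3 (9.81 FPKM) followed, and their 3 values overlapped. SOCS7 (5.14 FPKM), SOCS4 (4.27 FPKM) and SOCS5 (3.48 FPKM) came next, and their values overlapped each other. The highest value of SOCS6 (mean 2.32 FPKM, highest 2.53 FPKM) lay just below the lowest of SOCS5, 2.76 FPKM. CISH (0.869 FPKM) and SOCS1 each lay below every value of the genes above them.

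**Figure D2:**
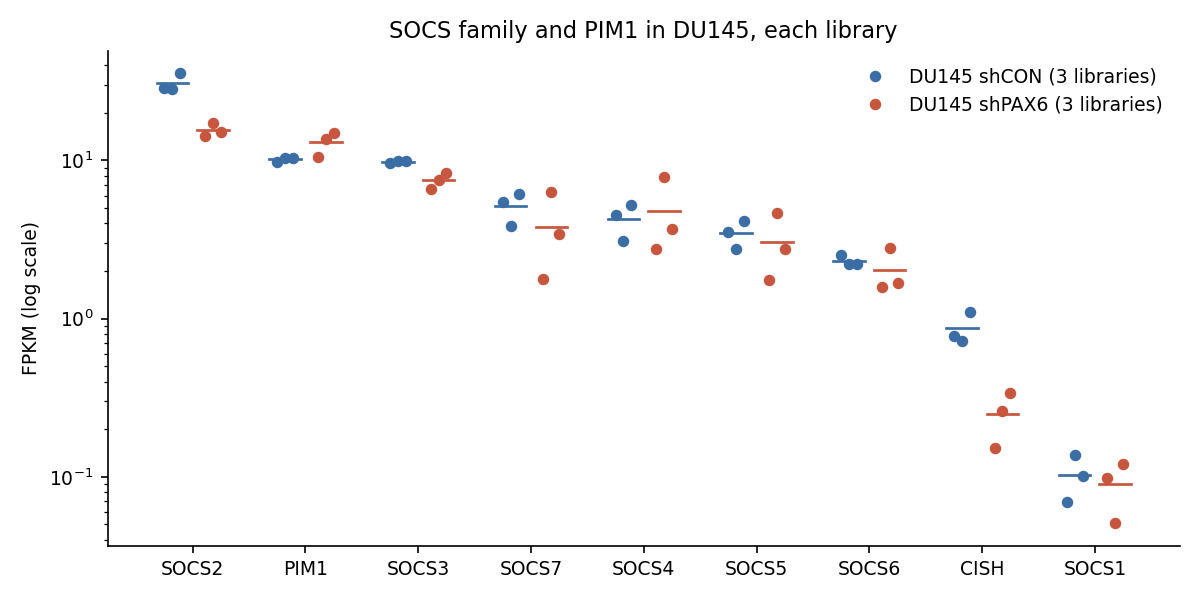
FPKM of the 9 genes in DU145 on a log scale, 1 point a library, with shCON in blue, shPAX6 in red and horizontal lines at the group means, ordered by the shCON mean. The points of CISH, SOCS2 and SOCS3 do not overlap between groups and are lower in shPAX6, those of PIM1 do not overlap and are higher, and in SOCS4 to SOCS7 the middle shPAX6 point, library 2, is the highest of the 3.

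Of the 9 genes, 8 passed the filter of 0.5 FPKM and were tested. SOCS2 was the 1 gene that passed the adjusted test, in the lower direction, beside 1.02% of all tested features. At an unadjusted p under 0.05, 3 of the 8 were lower (CISH, SOCS2 and SOCS3), beside 14.1% of all tested features, and none was higher. The same 3 genes had every shPAX6 library below every shCON library, which was so for 20.0% of all tested features. PIM1 had every shPAX6 library above, which was so for 6.70%. The median log2 fold change was -0.33 over the 8 genes and -0.12 over all tested features.

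SOCS2 (ENSG00000120833, chr12:93963598-93970521, plus strand, GRCh37), which restrains growth hormone signalling by marking its receptor for degradation, was 28.7, 28.2 and 35.6 FPKM in shCON and 14.2, 17.4 and 15.1 FPKM in shPAX6. The lowest shCON library was well above the highest shPAX6 library, and the means were 30.8 ± 4.15 and 15.5 ± 1.62 FPKM (SD, n = 3 each). SOCS2 thus fell 1.98-fold, to 50.4% of its shCON mean. On the log2(FPKM + 0.1) scale the change was -0.98 (SE 0.15, 95% interval -1.34 to -0.62), with a limma p of 0.00028 and an adjusted p of 0.0384. The direction was the same in all 17 alternative fits, with changes of -1.06 to -0.80, and the adjusted p stayed under 0.05 in 8 of them and ran from 0.000107 to 0.264. It was 0.186 without shCON library 1, 0.221 without shCON library 2, 0.264 without shCON library 3 and 0.195 without shPAX6 library 3. It was also 0.0554 without the filter, 0.0630 after median centring and 0.0518 without the intensity trend. Without shPAX6 library 1 or 2, the libraries that stood apart, it was 0.0136 and 0.0168. SOCS2 shares 1955 bases with SOCS2-AS1 on the opposite strand (GENCODE, GRCh37), and no source used here says that strand was kept in counting, so reads of that RNA cannot be told apart from SOCS2 there.

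CISH (ENSG00000114737, chr3:50643885-50649262, minus strand, GRCh37), a STAT5 target that binds phosphorylated cytokine receptors such as those of erythropoietin and interleukin 2, was 0.779, 0.725 and 1.10 FPKM in shCON and 0.153, 0.262 and 0.337 FPKM in shPAX6. Every shPAX6 value was below 0.4 FPKM and every shCON value above 0.7 FPKM. The means were 0.869 ± 0.204 and 0.251 ± 0.0925 FPKM, the latter 28.8% of the former. The log2 change was -1.48 (SE 0.34, 95% interval -2.27 to -0.70), with a limma p of 0.00262 and an adjusted p of 0.0835, which misses the threshold. Its mean over the 6 libraries, 0.560 FPKM, passed the filter only through the shCON libraries, so its being tested at all rested on the group in which it was higher. It was absent from the fit of features averaging 1 FPKM or more and from the fit without shCON library 3. In the other 15 alternatives the change ran from -1.80, with a pseudocount of 0.01, to -0.58, with a pseudocount of 1, and the adjusted p from 0.00467, with array weights, to 0.338. At a pseudocount of 0.1 this was the largest absolute change among the 8 tested genes, whereas at a pseudocount of 1 that of SOCS2, -0.94, was larger. At 0.1, the 3 genes whose values followed it most closely over the 6 libraries were SUSD3 (Pearson r = 0.998), PLEKHM2 (r = 0.998) and MXRA8 (r = 0.997), which share these libraries and have log2 changes of -1.13, -0.51 and -1.15. In GENCODE, where CISH spans chr3:50643920-50649205 (GRCh37), it overlaps MAPKAPK3 by 255 bases on the opposite strand. MAPKAPK3 spans chr3:50648951-50686722, so the upstream window of CISH shown above lies inside it. MAPKAPK3 was 54.1, 56.8 and 60.7 FPKM in shCON and 52.4, 56.3 and 59.8 FPKM in shPAX6.

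SOCS3 (ENSG00000184557, chr17:76352858-76356160, minus strand, GRCh37), which docks on the gp130 receptor and blocks JAK kinases after interleukin 6, was 9.58, 9.93 and 9.91 FPKM in shCON and 6.59, 7.50 and 8.36 FPKM in shPAX6. The shCON values lay within 0.4 FPKM of each other and above all shPAX6 values. The log2 change was -0.39 (SE 0.15, 95% interval -0.75 to -0.03), with a limma p of 0.0357 and an adjusted p of 0.237. After the correction for GC content it was -0.06, with an adjusted p of 0.840. The transcript is 60.0% GC, and features with a GC content of 58.3% or more had a median change of -0.32 in this comparison; the part of GC content in the SOCS3 change was not tested.

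SOCS1 (ENSG00000185338, chr16:11348274-11350039, minus strand, GRCh37), which blocks JAK kinases directly and limits interferon gamma signalling, was near the low end of detection, at 0.0690, 0.137 and 0.101 FPKM in shCON and 0.0983, 0.0509 and 0.121 FPKM in shPAX6. It stayed below the filter, and the groups overlapped (exact permutation test, two-sided p = 0.7, n = 3 each, where the smallest possible p is 0.1). SOCS1 lies inside RMI2 on the opposite strand, and RMI2 was 13.1 to 21.7 FPKM in the 6 libraries.

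SOCS4 (ENSG00000180008, chr14:55493844-55516207, plus strand, GRCh37) and SOCS5 (ENSG00000171150, chr2:46926099-46989927, plus strand, GRCh37), which have been tied to epidermal growth factor receptor turnover, did not pass in DU145. SOCS4 was 4.51, 3.09 and 5.22 FPKM in shCON and 2.77, 7.84 and 3.67 FPKM in shPAX6, a log2 change of 0.05 (95% interval -0.87 to 0.96, limma adjusted p = 0.970). SOCS5 was 3.54, 2.76 and 4.13 FPKM in shCON and 1.74, 4.69 and 2.75 FPKM in shPAX6, a log2 change of -0.27 (95% interval -1.10 to 0.57, limma adjusted p = 0.753). In both genes shPAX6 library 2 was the highest of all 6 libraries and library 1 the lowest, so the groups overlapped. The intervals leave room for about a 2-fold decrease in SOCS5 and for nearly a 2-fold change either way in SOCS4. SOCS5 shares 81294 bases with the noncoding gene LINC01118 on the same strand (GENCODE, GRCh37), so strand cannot tell their reads apart there. LINC01118 had 0 reads in LNCaP parental and 1 in LNCaP-ENZ.

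SOCS6 (ENSG00000170677, chr18:67956137-67997434, plus strand, GRCh37), which binds the KIT receptor and insulin receptor substrates, was 2.53, 2.22 and 2.21 FPKM in shCON and 1.59, 2.81 and 1.67 FPKM in shPAX6. SOCS7 (ENSG00000274211, chr17:36508007-36561846, plus strand, GRCh37), which also binds insulin receptor substrates, was 5.45, 3.85 and 6.14 FPKM in shCON and 1.77, 6.28 and 3.41 FPKM in shPAX6. The groups overlapped for both, since shPAX6 library 2 was again above every other library. The log2 changes were -0.23 (95% interval -0.85 to 0.39, limma adjusted p = 0.707) for SOCS6 and -0.57 (95% interval -1.57 to 0.44, limma adjusted p = 0.550) for SOCS7. Without shPAX6 library 2 the SOCS7 change was -1.005, and without shPAX6 library 1 it was -0.12, and neither passed.

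Across all features, the gap between shPAX6 libraries 1 and 2 differed with base composition and transcript length. On the log2 scale library 2 was above library 1 by 1.47 for SOCS4, 1.38 for SOCS5, 0.79 for SOCS6 and 1.77 for SOCS7. Over the fifth of features with the lowest GC content, 29.2 to 40.6%, the median of that gap was 0.83, and SOCS4 (35.4% GC), SOCS5 (37.5%) and SOCS6 (37.0%) belong to it. Over the fifth with the highest GC content the median was -0.30. SOCS7, at 53.5% GC, had the widest gap of the 4 and lies in the GC range of 51.8 to 58.3%, whose median was 0.04. Over the longest transcripts, 6095 bases or more, it was 1.07, and SOCS4 (6903 bases) and SOCS7 (8258 bases) belong to them. For SOCS2, at 47.3% GC and 3733 bases, the gap was 0.29, and for CISH, at 56.7% GC and 5042 bases, it was 0.52. The part of GC content and length in the members' values was not tested beyond the fit corrected for GC content.

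**Figure D3:**
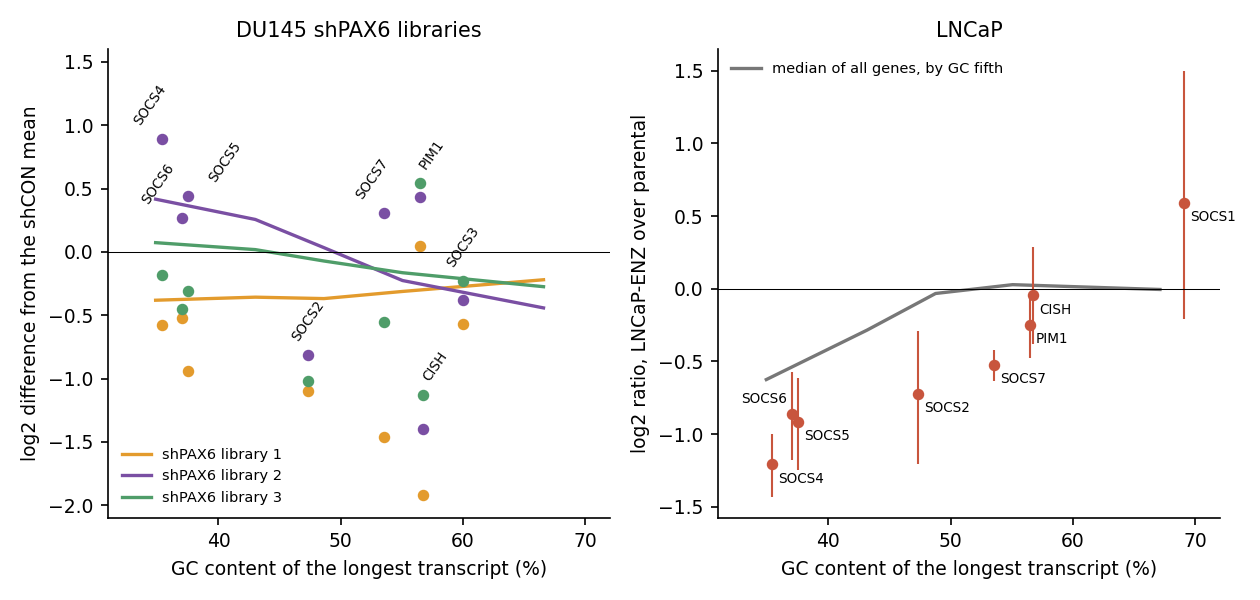
Left, log2 difference of each DU145 shPAX6 library from the shCON mean, with points for the 8 tested genes and lines for the medians of all tested features in 5 equal bins of GC content (x axis, GC percent of the longest transcript, lines drawn at the middle of each bin's range). Right, log2 ratio of LNCaP-ENZ over parental for the 8 genes counted there, with 95% counting intervals, and a grey line for the median of all genes by bin. SOCS4, SOCS5 and SOCS6 sit at the left in both panels, where shPAX6 library 2 is above library 1 and where the LNCaP median is -0.62.

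PIM1 (ENSG00000137193, chr6:37137922-37143204, plus strand, GRCh37) had the opposite direction. It was 9.82, 10.3 and 10.4 FPKM in shCON and 10.5, 13.8 and 14.9 FPKM in shPAX6, so that the lowest shPAX6 library was barely above the highest shCON library. The log2 change was 0.34 (SE 0.17, 95% interval -0.06 to 0.73), with a limma p of 0.0837 and an adjusted p of 0.350. It was positive in all 17 alternatives and passed with array weights (0.52, limma adjusted p = 0.0021) but in no other. With array weights 4569 of 13574 features passed. After the GC correction the PIM1 change was 0.63 (limma adjusted p = 0.0778). Its 2 paralogues, kinases of the same family, also did not pass, with log2 changes of -0.07 for PIM2 (adjusted p = 0.847) and -0.38 for PIM3 (adjusted p = 0.218).

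**Figure D4:**
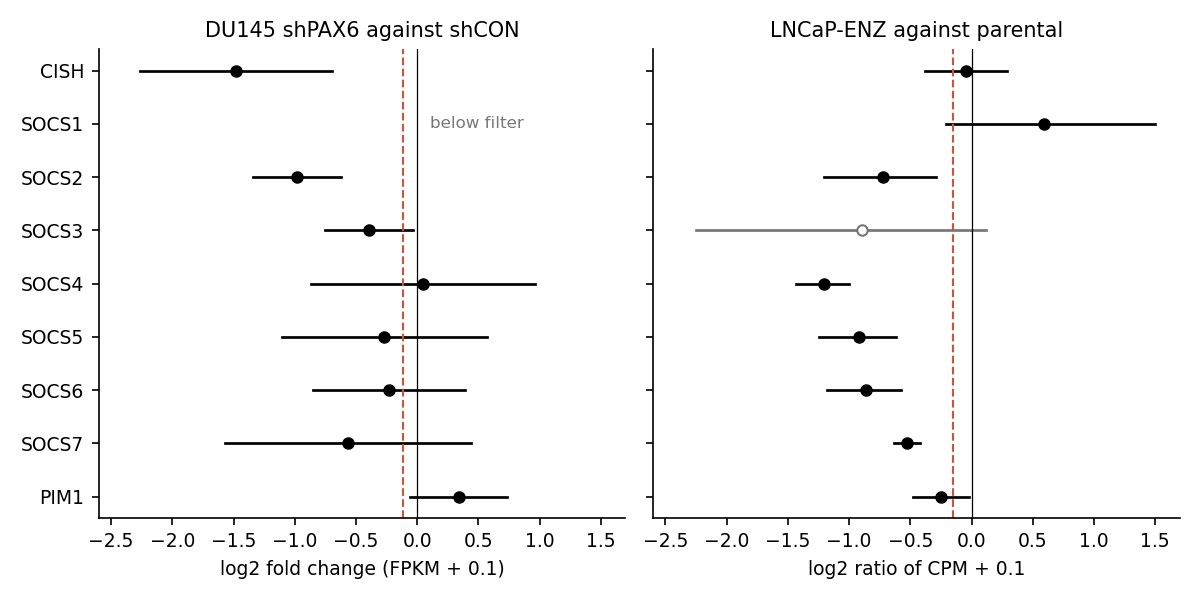
Left, limma log2 fold changes in DU145 with 95% intervals (3 libraries a group), and right, log2 ratios in LNCaP with 95% intervals that cover counting error only (1 library a group). Dashed red lines mark the medians of all tested features, -0.12 and -0.15, and the open grey point is SOCS3, whose counts were too low to be counted in LNCaP. In DU145 the intervals of CISH, SOCS2 and SOCS3 lie below 0, and in LNCaP those of SOCS2, SOCS4 to SOCS7 and PIM1 do.

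Around the feedback genes, the signalling chain was read from lists of receptors, kinases and targets in the same DU145 fit. Among 11 JAK and STAT genes 1 passed, beside 1.20% of all tested features. This gene, STAT5A, was 6.39, 5.68 and 6.80 FPKM in shCON and 1.99, 2.91 and 2.82 FPKM in shPAX6, without overlap. Its log2 change was -1.27 (SE 0.21, limma adjusted p = 0.0423). The STAT5A transcript is 57.8% GC, and after the GC correction the change was -0.96, with a limma adjusted p of 0.0526, which misses the threshold. The adjusted p was under 0.05 in 9 of 17 alternatives and was 0.227, 0.234 and 0.301 without shCON library 1, 2 and 3 and 0.192 without shPAX6 library 3. STAT5B, its close paralogue, had a change of -0.48 and did not pass (adjusted p = 0.448). None of 20 tested cytokine receptors (of 34 listed), 6 ligands (of 20), 13 other negative regulators such as PIAS proteins and phosphatases (of 15), or 8 SOCS box ligase partners passed in either direction by limma, and at an unadjusted p under 0.05 there were 2, 2, 3 and 1 such genes, beside 18.3% of all tested features. Among 10 other STAT5 or STAT3 targets, 2 passed and both were lower. BCL3, an IκB family coactivator, was 28.7, 33.8 and 34.4 FPKM in shCON and 18.3, 12.0 and 14.5 FPKM in shPAX6 (log2 change -1.12, adjusted p = 0.0402). JUNB, an AP-1 transcription factor, was 48.2, 63.4 and 67.7 FPKM in shCON and 32.6, 26.3 and 28.2 FPKM in shPAX6 (log2 change -1.03, adjusted p = 0.0407). The lowest shCON library was above the highest shPAX6 library in both genes, which was so for 20.0% of all tested features. BCL3 (66.4% GC) and JUNB (64.9% GC) lie in the fifth with the highest GC content, whose median change was -0.32, and after the GC correction their changes were -0.70 and -0.63. The adjusted p was under 0.05 in 7 of 17 alternatives for BCL3 and 8 of 17 for JUNB, and without shCON library 1, 2 or 3 or shPAX6 library 3 it was 0.185, 0.264, 0.294 and 0.197 for BCL3 and 0.140, 0.271, 0.293 and 0.198 for JUNB.

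In LNCaP, whole read counts were given, 20468001 in parental and 17945722 in LNCaP-ENZ, so that 3 counts, the limit that a count of 0 allows, equal 0.147 and 0.167 CPM, counts scaled to the library total. Epithelial and luminal genes were present (KLK3 1817 and 1186 counts), and 4 of 5 fibroblast markers, COL1A2 and DCN among them, had 0 counts. The remaining fibroblast marker, COL1A1, had 456 and 231 counts. Of 4 endothelial markers, which summed to 348 and 46 counts, CDH5 had 0, VWF had 345 and 27, and KDR had 0 and 16. The part of these in the ratios below was not tested. The methods speak of replicates of each cell line, and whether a column pools several samples is not stated. With 1 column a group there is no test, and the 95% intervals, from the exact Clopper-Pearson interval of the split of the counts, cover counting error only. Levels between genes are compared as TPM, which corrects for length.

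The order of levels was not that of DU145. SOCS7 was highest, at 12.3 TPM in parental and 8.06 TPM in LNCaP-ENZ, and SOCS3 lowest, at 0.429 and 0.200 TPM. SOCS2, the highest of the 9 in DU145, was number 7 in parental and number 8 in LNCaP-ENZ, at 1.56 and 0.881 TPM. CISH, number 8 in DU145, was number 4 in parental cells at 3.73 TPM and number 3 in LNCaP-ENZ at 3.41 TPM. The tables were normalized separately, and levels were not tested between cell lines.

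**Figure D5:**
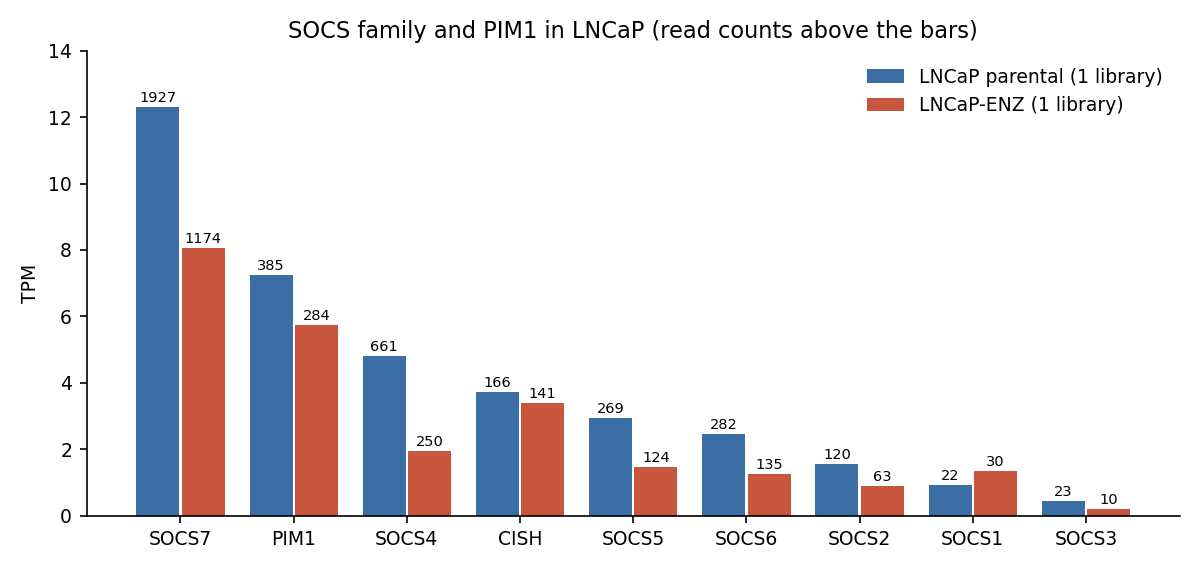
TPM of the 9 genes in the LNCaP parental library (blue bars) and the LNCaP-ENZ library (red bars), with the read counts above the bars and the genes ordered by the parental level. SOCS4 falls from 661 to 250 reads, CISH is close between libraries at 166 and 141, and SOCS1 is the 1 gene with the higher bar in LNCaP-ENZ.

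A difference was counted where it reached 2-fold either way with a mean of at least 1 CPM, which 8 of the 9 genes had. SOCS4 was the 1 gene past 2-fold, and it was lower in LNCaP-ENZ. Of all 14767 such genes 11.4% were past 2-fold, 9.57% lower and 1.84% higher, which is 271 higher and 1413 lower, or 400 and 982 with TMM factors and 417 and 952 with the median ratio set to 0. The median log2 ratio of the 8 genes was -0.62, beside -0.15 over all 14767. Of the 8, 7 were below 0, as were 9196 of all 14767 genes. It was 6 of the 8 with TMM factors or with the median ratio set to 0, where CISH turned. The median of all genes was then -0.009 and 0.

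SOCS4 had 661 reads in parental and 250 in LNCaP-ENZ, a level 2.32-fold lower with a log2 ratio of -1.21 (95% interval -1.43 to -1.001). It stayed past 2-fold under all 8 alternatives, at -1.26 to -1.05. SOCS5 had 269 and 124 reads, a log2 ratio of -0.92 (95% interval -1.25 to -0.62). SOCS6 had 282 and 135 reads, a log2 ratio of -0.86 (95% interval -1.18 to -0.57). These 3 genes lay lowest of the 8, and all belong to the fifth of genes with the least GC, 29.2 to 40.7%, whose median log2 ratio was -0.62 and of which 22.6% were 2-fold lower, against a median of -0.005 and 5.36% in the fifth with the most GC. Whether GC content has a part in their ratios was not tested. SOCS7 had 1927 and 1174 reads, a log2 ratio of -0.52 (95% interval -0.63 to -0.42), which was -0.38 with TMM factors. Its length of 7978 bases puts it among the longest 20% of genes, those of 5375 bases or more. SOCS4 (7013 bases) and SOCS6 (5846 bases) belong to them as well. Their median log2 ratio was -0.39, and 15.4% of them were 2-fold lower. The part of length in the members' ratios was not tested.

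SOCS2 had 120 reads in parental and 63 in LNCaP-ENZ, a log2 ratio of -0.72 (95% interval -1.20 to -0.29). The interval excludes equal levels by counting error alone and includes a 2-fold decrease. SOCS2-AS1, on the other strand, had 5 and 3 reads. CISH had 166 and 141 reads, a log2 ratio of -0.05 (95% interval -0.38 to 0.29). That is within counting error of no difference, and the ratio was 0.10 with TMM factors and 0.11 with the median ratio set to 0. SOCS1 had 22 and 30 reads, a log2 ratio of 0.59 (95% interval -0.20 to 1.501), also within counting error. SOCS3 had 23 and 10 reads and was not counted, since its mean was under 1 CPM (95% interval of the log2 ratio -2.25 to 0.12). PIM1 had 385 and 284 reads, a log2 ratio of -0.25 (95% interval -0.48 to -0.02), close to the -0.15 of all genes. PIM2 and PIM3 had log2 ratios of 0.26 and -0.49, neither past 2-fold.

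In the same libraries STAT5A had 6 and 1 reads, or 0.0682 and 0.0122 TPM, whereas STAT5B had 1348 and 1189 reads, a log2 ratio of 0.01. PAX6 had 11 and 4 reads. STAT5A and PAX6 each had a mean under 1 CPM and were not counted. The 95% intervals of their log2 ratios include 0, at -7.92 to 0.65 for STAT5A and -3.38 to 0.49 for PAX6. Of 8 JAK and STAT genes with a mean of at least 1 CPM 1 was past 2-fold, the cytokine receptor kinase JAK3, with 236 and 58 reads (log2 ratio -1.80, 95% interval -2.28 to -1.42). Of 19 receptors 5 were 2-fold lower and none higher, beside 9.57% and 1.84% of all genes. GHR, the growth hormone receptor that SOCS2 targets, had 438 and 84 reads (log2 ratio -2.17, 95% interval -2.55 to -1.85). IL2RB, a chain of the interleukin 2 receptor, had 56 and 5 reads (log2 ratio -2.91, 95% interval -4.97 to -1.99), and it was counted only through the parental library, since it had 0.279 CPM in LNCaP-ENZ. The other 3 receptors, IL6ST, LIFR and IFNAR1, had intervals that include 2-fold and are named after their values were seen. IL6ST (36.5% GC) and LIFR (37.1% GC) lie in the range of least GC described above, of which 22.6% were 2-fold lower. Of 11 other STAT5 or STAT3 targets 1 was past 2-fold, ID1, an inhibitor of helix-loop-helix factors, with 20 and 73 reads (log2 ratio 1.95, 95% interval 1.33 to 2.85), and it was counted only through the LNCaP-ENZ library, since it had 0.977 CPM in parental. Of 3 ligands 1 was 2-fold higher (TSLP) and of 14 other negative regulators 1 was 2-fold lower (PIAS1), both with intervals that include 2-fold and also named after their values were seen. None of 8 SOCS box ligase partners was past 2-fold.

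Set side by side, SOCS2 had a log2 difference of -0.98 in DU145 shPAX6 and -0.72 in LNCaP-ENZ, CISH one of -1.48 and -0.05, SOCS4 one of 0.05 and -1.21, and PIM1 one of 0.34 and -0.25. The contrasts differ in cell line, agent and normalization, and their difference was not tested. In bulk RNA, less RNA per cell and fewer expressing cells cannot be told apart.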

How the data were processed

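Total RNA of 2 LNCaP and 6 DU145 samples was sequenced, and 6 chromatin accessibility samples were not used here. The authors aligned reads to GRCh37 with HISAT2 and quantified transcripts with StringTie. The deposited DU145 table does not name its unit; its values were taken as FPKM computed by the authors, from their form and the study's methods. The deposited LNCaP table holds raw counts per gene and TPM from the authors, with the counting tool not given in the sources used here and 1 column a group, although the methods state 3 replicates for each cell line; each column was treated as 1 sample. No column was left without a sample.

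DU145 groups were compared with limma 3.58.1 (R 4.3.3, trend and two-sided) on log2(FPKM + 0.1), which understates the change of low genes, over the 13574 features that averaged 0.5 FPKM or more, and p-values were adjusted over all of them by Benjamini-Hochberg. LNCaP ratios used CPM + 0.1 and Clopper-Pearson intervals (scipy 1.17.1), and TMM factors came from edgeR 4.0.16. The step of each comparison was tested on simulated data. GC content and length came from the longest GENCODE transcript (12009 of the tested features, 88.5%), and upstream windows from the GRCh37 genome; the window of SOCS3 and some marker genes are not reported here. Named genes were the 9 members, PAX6, STAT5A, STAT5B, and the pathway genes that passed in DU145 or whose LNCaP interval excluded 2-fold. The 3 genes most like the tested member with the largest change were also named. CCND1, PIM2, PIM3, IL6ST, LIFR, IFNAR1, TSLP, PIAS1, overlapping genes and markers were named outside these rules. The members and lists were chosen with earlier results of these data known. Alternatives changed pseudocount, filter, scaling, weights, GC content, replicate block and each DU145 library.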

Additional observations from a re-analysis of the deposited data

How the results depend on the processing

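Of 17 alternative fits in DU145, 7 kept the count of 1 passing member, SOCS2, and 10 did not. The count was 0 of the members without a filter on low values, with median centring, without the intensity trend, with the replicate block and with the GC correction and replicate block, where 3, 3, 3, 2 and 3 members had an unadjusted limma p under 0.05. In the same order, 3190 of 20572, 2377 of 13574, 2431 of 13574, 1568 of 13574 and 1474 of 12009 tested features had one. The count was 4 with array weights (CISH, SOCS2, SOCS6 and PIM1). It ranged from 0 to 1 over the fits that left out 1 library each. Over all tested features the count of 163 became 108 without a filter, 100 with median centring, 4569 with array weights, 0 with the replicate block (1568 at an unadjusted limma p under 0.05) and 7 with the GC correction and replicate block, and ranged from 0 to 924 over the fits that left out 1 library each: 0 without shCON library 1 (1614 unadjusted) or 3 (1242 unadjusted), 5 without shCON library 2, 924 and 899 without shPAX6 library 1 and 2, and 10 without shPAX6 library 3. The replicate numbers share no stated origin, and deviations of same-numbered libraries correlated at -0.17, -0.37 and 0.05, not every library correlated best with its own number, and the block result (SOCS2 adjusted limma p = 0.219, or 0.198 with the GC correction) rests on a shared number only. The sign of SOCS4 in DU145, which did not pass, turned with array weights (-0.11), with the GC correction with or without the block (-0.014), and without shCON library 2 (-0.17) or shPAX6 library 2 (-0.38), within a range of -0.38 to 0.36 over the fits that left out 1 library each, and that of SOCS5, which did not pass, turned without shPAX6 library 1 (0.066), within a range of -0.62 to 0.066. The member median in DU145 stayed below 0, at -0.55 to -0.11. In LNCaP the 8 alternatives left SOCS4 as the 1 member past 2-fold, with a member median of -0.72 to -0.47, while the count of 1684 over all genes became 1054 with a pseudocount of 1 CPM, 874 with a mean of at least 5 CPM and 6120 with no filter. The cause of these changes was not tested. The read number behind the DU145 values is unknown, and the LNCaP groups have no replicate, so their intervals leave out variation between cultures.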
